A study of Homo sapiens with 6 samples.

Results

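UACC-812 and SKBR3 are 2 established human breast cancer cell lines with an amplified ERBB2 gene, which encodes the receptor HER2. UACC-812 is positive and SKBR3 negative for the estrogen receptor. The pair was chosen by cell line from a series of RNA sequencing libraries, and it makes up 2 of the 6 lines measured. The other 4 lines, MDA-MB-415, MDA-MB-453, T47D and CAL51, also breast cancer lines, were used only to show where the pair lies. They were grown with 15%, 20%, 10% and 10% serum in that order, and insulin and glutathione were added for MDA-MB-415, so their culture differed too. Each line had 1 library of mRNA, sequenced as single-end reads. UACC-812, labelled as ductal carcinoma, was grown in L-15 medium with L-glutamine, 20 ng/ml epidermal growth factor (EGF) and 20% serum. SKBR3, labelled as adenocarcinoma and taken from a pleural effusion, was grown in RPMI medium with 20% serum and no EGF named. Line, medium and added EGF therefore cannot be told apart. With 1 library a line there were no replicates and no test, and every difference below compares these libraries.

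HER2 is a receptor tyrosine kinase that pairs with other members of its family and drives the RAS-ERK and PI3K-AKT cascades, and tumours with extra copies of its gene make it in large amounts. Estrogen receptor alpha, the product of ESR1, is a transcription factor that binds estradiol and raises a set of genes typical of luminal breast cells. Tumours with HER2 amplification occur with and without this receptor.

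The labels name no unit for the values. The unit was inferred to be RPKM from genes with 1 exon, and adding up across exons was assumed without a test. A level is therefore compared only between lines and never between genes. On that reading of the unit, the steps between low values put the depth at about 25600000 reads in UACC-812 and 33700000 in SKBR3. These are estimates, the smallest depths among fits that were nearly equally good. At these depths, 3 reads in an exon of 150 bp were worth 0.781 and 0.593. Both libraries had high levels of the epithelial markers EPCAM and KRT8. EPCAM was 1683 in UACC-812 and 2010 in SKBR3, and KRT8 was 55731 and 11581. The leukocyte genes MS4A1 and CD4 and the fibroblast genes COL3A1, DCN and FAP were listed at 0 in both, while the leukocyte genes PTPRC and CD3E were listed at 0 in UACC-812 and were 2.76 and 8.40 in SKBR3. Over 16 leukocyte markers the values summed to 45.4 in UACC-812, to 86.1 in SKBR3 and to between 50.8 and 460.1 in the other lines. The 9 fibroblast and endothelial markers summed to 385 and 219, or 17.04 and 23.98 without PDGFRA.

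Of 16418 genes, 2007 (12.2%) were at least 4-fold higher in UACC-812 and 1370 (8.34%) at least 4-fold higher in SKBR3, each gene taken as log2(value + 1) relative to the median gene. At 2-fold the counts were 4414 (26.9%) and 3568 (21.7%), and 8436 genes (51.4%) lay within 2-fold. These shares are the background for every gene list below. The centring matters, because the median gene was 0.64 log2 units higher in UACC-812 as deposited, and without centring 82.6% of the genes 4-fold apart were higher in UACC-812 in place of 59.4%. All differences below are centred log2 differences, UACC-812 minus SKBR3, unless given as deposited. Where the lower value is below that of 3 reads, the size of the difference rests on the added 1. Among the 15 pairs that 6 lines allow, this pair ranked 11th from the fewest genes 4-fold apart, with 3377. UACC-812 against T47D had the fewest, 2098, and MDA-MB-453 against T47D came next with 2104.

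**Figure D1:**
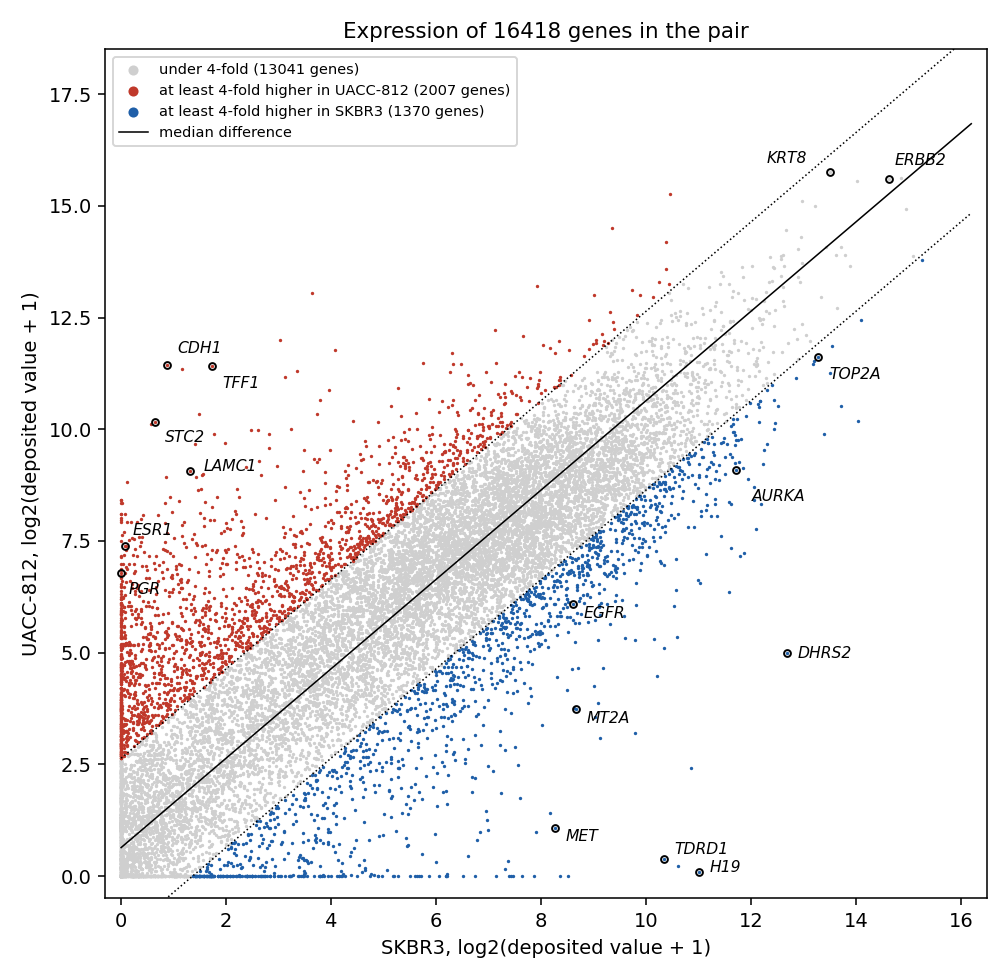
Each point is a gene, with log2(value + 1) in SKBR3 on the x axis and in UACC-812 on the y axis. The solid line marks the median difference of 0.64, the dotted lines mark 4-fold on either side of it, and 2007 genes lie above and 1370 below the dotted lines.

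Which line of the pair lay beyond the other 4 differed from gene to gene. Over all 16418 genes, UACC-812 lay above all 4 other lines at 3086 genes (18.8%) and below them at 3082 (18.8%). SKBR3 lay above them at 3371 (20.5%) and below them at 3087 (18.8%). These shares, on log2 values centred by library, are the background and do not mark the genes apart as unusual. The centring weighs most on SKBR3, which lay above the others at 1571 genes and below them at 5341 on the values as deposited, and 508 of the genes called low in UACC-812 and 128 of those called high in SKBR3 were listed at 0 in that line. Of the 2007 genes higher in UACC-812, UACC-812 alone was beyond the other lines at 641, SKBR3 alone at 506, both at 377 and neither at 483. Of the 1370 genes higher in SKBR3, SKBR3 alone was beyond at 483, UACC-812 alone at 227, both at 429 and neither at 231. The larger share of the SKBR3 genes thus had SKBR3 itself beyond the other lines, alone or with UACC-812. Picking genes for being higher in a line favours that line lying above the others, so these counts are description only. As deposited, 717 genes were 4-fold higher in SKBR3, with SKBR3 alone beyond at 247 and both at 144.

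The receptor status named in the choice of the pair was seen in the RNA. ESR1 was 166 in UACC-812 and 0.0522 in SKBR3, a value under that of 3 reads, and the other lines ranged from 0 to 284. ERBB2 was 49826 in UACC-812 and 25464 in SKBR3. The other 4 lines had 1122 to 6356. Both lines were far above the others, and the difference between them was 0.97 as deposited and 0.33 centred. PGR, the progesterone receptor gene and a classic estrogen target, was 108 in UACC-812 and listed at 0 in SKBR3. GATA3, a factor that specifies luminal cells, was 1583 and 68.7, a difference of 3.87. The luminal programme was not lost as a block in SKBR3. FOXA1, which opens chromatin for the estrogen receptor, was 256 and 106 (0.63), the goblet and luminal factor SPDEF was 382 and 166 (0.56), and XBP1, a secretory factor, was 470 and 397 (-0.39). Of the 19 steroid receptor and luminal factor genes, 7 were 2-fold higher in UACC-812 and 5 in SKBR3, with a median of -0.39. The sign of this median was not stable, as it was 0.24 as deposited and 0.56 centred among the 17 genes reaching 5 in either line.

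Genes that estrogen is known to induce in breast cells were mostly higher in UACC-812. Of 38 measured, 24 were at least 2-fold higher there and 4 in SKBR3, and 17 against 2 were 4-fold apart, with a median of 1.92. TFF1, a secreted trefoil peptide and standard readout of the receptor, was 2737 in UACC-812 and 2.30 in SKBR3. STC2, a secreted glycoprotein of calcium and phosphate balance, was 1140 and 0.558. TFF3 was 812.5 and 1.66. These were among the widest gaps of the pair, but the other lines differ between them: TFF1 was 2.30 to 8.34 elsewhere, whereas STC2 reached 2160. GREB1, a cofactor of the receptor, was 355 and 2.56, and T47D had 3185. The transcription factor gene MYB, also on this list, was 39.0 in UACC-812 and 204 in SKBR3 (-2.999), and the matrix gene THBS1 was 324 and 1422 (-2.77). AGR2, a chaperone of secreted mucins, was 5087 and 5595 (-0.77).

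The promoters of the estrogen-induced genes were read for the letters that the receptor recognises. RefSeq promoters of GRCh38.p14, from 250 bases before to 50 bases after the start site, were at hand for 30 of the 38 genes. The full palindrome, GGTCA and TGACC with 3 bases of any kind between them, was in 0 of the 30 and in 0.057% of 35116 promoters. Its core GGTCA on either strand was in 11 of the 30 and in 37.4% of all promoters. PGR and STC2 are shown, as the listed genes of this kind with the widest gaps in the pair, each with 1 core in capitals. The PGR window is chr11:101129028-101129327, minus strand, with its core on the opposite strand at position -166 from the start site, and the STC2 window is chr5:173328365-173328664, minus strand, with its core at position 23.
PGR: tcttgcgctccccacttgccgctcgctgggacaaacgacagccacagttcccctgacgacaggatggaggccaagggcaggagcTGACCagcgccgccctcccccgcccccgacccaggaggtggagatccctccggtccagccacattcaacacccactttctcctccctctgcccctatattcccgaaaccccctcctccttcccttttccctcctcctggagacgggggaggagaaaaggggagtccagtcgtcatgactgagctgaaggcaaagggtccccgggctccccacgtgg
STC2: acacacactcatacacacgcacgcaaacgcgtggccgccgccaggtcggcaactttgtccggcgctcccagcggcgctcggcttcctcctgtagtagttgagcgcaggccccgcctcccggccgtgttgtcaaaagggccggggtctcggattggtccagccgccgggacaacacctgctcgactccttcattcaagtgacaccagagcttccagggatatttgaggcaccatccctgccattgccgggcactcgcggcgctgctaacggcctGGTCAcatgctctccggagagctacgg

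Among the other receptors of the HER family, EGFR was higher in SKBR3 and ERBB3 and ERBB4 in UACC-812. EGFR was 66.8 in UACC-812 and 388 in SKBR3 (-3.16), and the EGF gene itself was 9.45 and 117 (-4.14). UACC-812 was the line grown with added EGF. ERBB3, the partner of HER2 without kinase activity of its own, was 2269 and 991 (0.56). ERBB4 was low in both, 6.60 and 0.644 (1.57), and the other lines had 7.13 to 369. The adaptor gene GRB7, which lies beside ERBB2, was 1462 and 1106 (-0.24). Of 20 receptors, ligands and adaptors, 4 were 2-fold higher in UACC-812 and 6 in SKBR3. MET, the receptor of hepatocyte growth factor, was 1.11 in UACC-812 and 306 in SKBR3 (-7.82), among the widest gaps of all genes. Downstream, the ERK target gene ETV5 was 47.7 and 0.0350 (4.92), SPRED1, an inhibitor of RAS signalling, was 12.97 and 73.5 (-3.05), and the 28 ERK response genes divided evenly with 6 higher each way. In the PI3K pathway the lipid phosphatase gene INPP4B was 645 and 23.4 (4.09), and IGF1R, a receptor of insulin-like growth factor, was 564 and 54.4 (2.71). The 28 genes of this pathway had a median of 0.12, with 9 higher in UACC-812 and 7 in SKBR3.

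**Figure D2:**
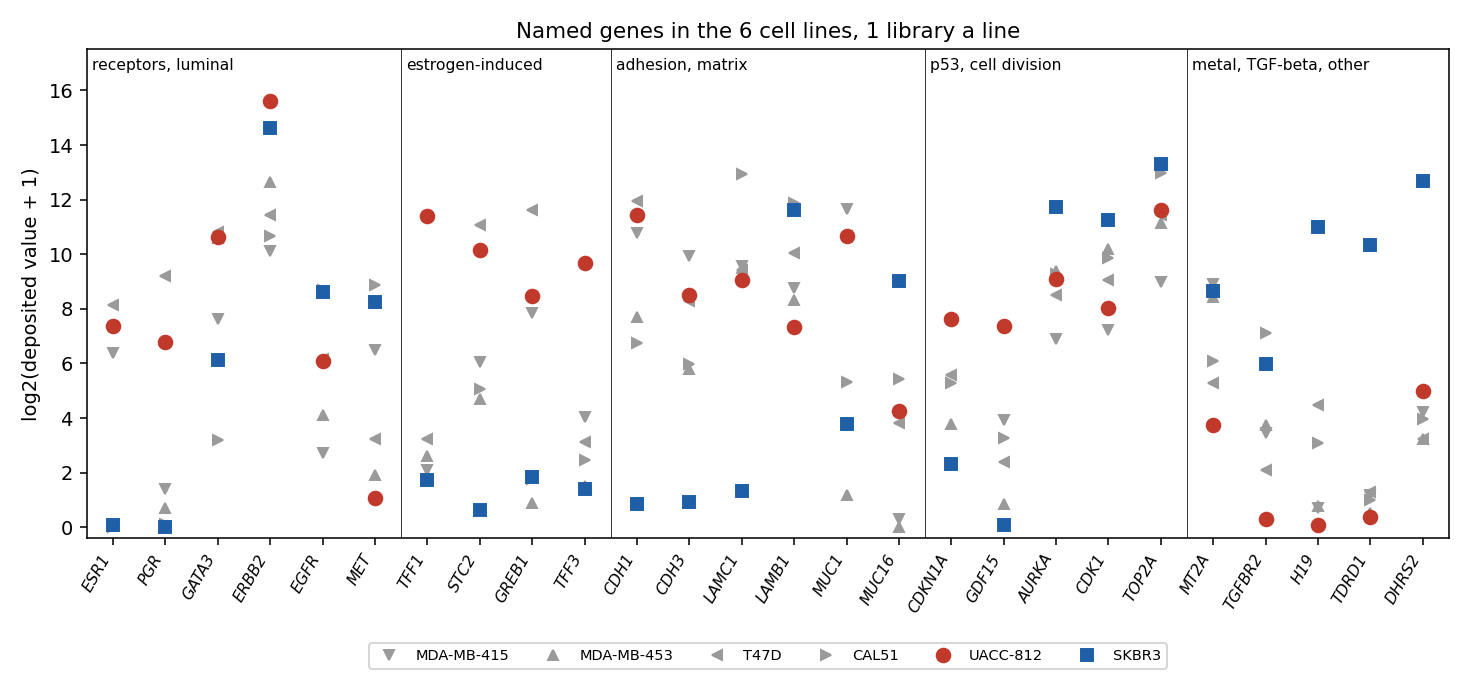
For 26 genes in 5 groups, log2(value + 1) is plotted for each of the 6 lines, with UACC-812 as red circles, SKBR3 as blue squares and the other 4 lines as grey triangles. ERBB2 stands high in both lines, while ESR1, TFF1, CDH1 and LAMC1 are near the floor in SKBR3 and H19, TDRD1 and MET are near it in UACC-812.

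Genes around ERBB2 on the long arm of chromosome 17 were high in both lines over a shared stretch, and mainly in UACC-812 on either side of it. Of 44 listed genes of 17q12-q21, UACC-812 lay above all 4 other lines at 38 and SKBR3 at 23, and SKBR3 lay below them at 9. Along the 22 genes from CACNB1 to MED24, a stretch bounded after the values were seen, both lines were above the other 4 at 18. Within it the lines ranked differently from gene to gene. MED1, a Mediator subunit, was 2104 in UACC-812 and 5038 in SKBR3 (-1.90), and CDK12, a kinase of transcription elongation, was 2047 and 5385 (-2.03). STARD3, a cholesterol carrier, was 6342 and 2748 (0.57). GSDMB, a pore-forming gasdermin, was 808 and 1911 (-1.88). On the side of SRCIN1 to LASP1, also bounded after the values were seen, UACC-812 was above the other lines at 12 of 12 genes. SKBR3 was below them at 8. PCGF2, a Polycomb subunit, was 1896 and 14.7, against 120 to 207 elsewhere. PSMB3, a proteasome subunit, was 9403 and 241, against 560 to 1005. RPL23, a ribosomal protein, was 39270 and 1410. Of these 12 genes, 10 were at least 4-fold higher in UACC-812.

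On the other side, from THRA to SMARCE1, bounded in the same way, UACC-812 was above the other lines at 10 of 13 genes and SKBR3 at 5. RARA, the retinoic acid receptor alpha gene, was 3760 in UACC-812 and 263 in SKBR3 (3.19). CASC3, a part of the exon junction complex, was 10006 and 1209 (2.41). RAPGEFL1 was 2392 and 96.6 (3.98). TOP2A, the topoisomerase of dividing cells, was the exception, with 3164 and 10007 (-2.30), and CDC6, a replication licensing factor, was 3352 and 3918 (-0.86). CSF3, a cytokine gene inside the stretch that was high in both, was 452 in UACC-812 and 0.0873 in SKBR3. Copy number was not measured here.

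**Figure D3:**
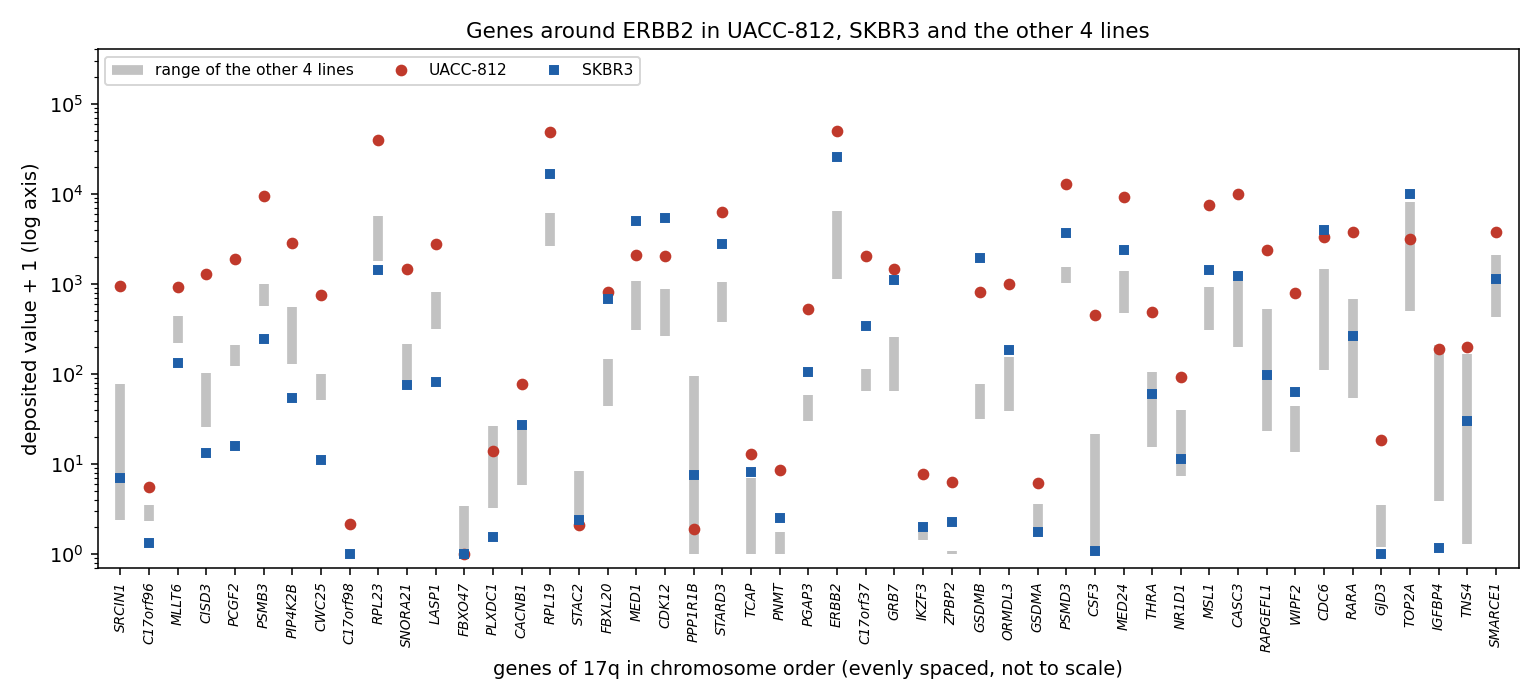
The 49 genes of 17q from SRCIN1 to SMARCE1 are drawn in chromosome order, evenly spaced, with value + 1 on a log axis for UACC-812 (red circles), SKBR3 (blue squares) and the range of the other 4 lines (grey bars). At the left the lines part, with SKBR3 at or under the grey bars, and around ERBB2 both lie above them.

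E-cadherin was the widest gap in favour of UACC-812. CDH1, which encodes this adhesion receptor of epithelial cells, was 2794 in UACC-812 and 0.823 in SKBR3, a difference of 9.94, and the other lines had 107 to 3978. SKBR3 was thus the unlike line. CDH3, the P-cadherin gene next to CDH1 on chromosome 16, was 359 and 0.906 (6.92), with 54.0 to 982 elsewhere. The genes flanking the 2 cadherins, looked at after these values were seen, did not share the gap. ZFP90 was 41.6 and 9.56 (1.37), and TMCO7 on the other side was 37.96 and 16.4 (0.52). The catenins that bind cadherin tails were near even: CTNNB1 was 3765 and 2432 (-0.01), CTNNA1 was 4458 and 2921 (-0.03), and JUP was 17355 and 13424 (-0.27). The desmosomal cadherin gene DSC2 was 132 and 1236 (-3.86). Of 24 genes of cadherins, catenins and desmosomes, 5 were 2-fold higher in UACC-812 and 4 in SKBR3. Of 27 genes of claudins, tight junctions and related epithelial proteins, 11 were 2-fold higher in UACC-812 and 5 in SKBR3. The claudin genes CLDN1, at 116 and 1.45 (4.95), and CLDN3, at 84.6 and 4.42 (3.34), were higher in UACC-812, and CLDN12, at 33.9 and 82.4 (-1.89), was higher in SKBR3.

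Of 30 integrin, laminin and collagen genes, 13 were 2-fold higher in UACC-812 and 8 in SKBR3, and 10 against 5 were 4-fold apart. LAMC1 and LAMB1 encode the gamma and beta chains that join in the same laminin. LAMC1 was 531 in UACC-812 and 1.499 in SKBR3 (7.10), while the other lines had 686 to 7800. LAMB1 was 162 and 3149 (-4.91). The laminin receptor subunit gene ITGA6 was 277 and 1.84 (5.97), again with SKBR3 below the range of 219 to 1966. COL6A2 was 181 in UACC-812 and listed at 0 in SKBR3, and its partner chain COL6A1 was 787 and 28.98 (4.08). COL12A1 was 23.9 and 383 (-4.58). Among mucins, MUC1, a membrane mucin of luminal cells, was 1618 and 12.9 (6.23), MUC2 was 136 and 2.30 (4.74) and MUC20 was 75.8 and 0.876 (4.72). MUC16, the CA125 antigen, went the other way at 18.2 and 517 (-5.39). Of 20 mammary secretory and mucin genes, 13 were 2-fold higher in UACC-812 and 3 in SKBR3, with a median of 2.09. Lactoferrin, LTF, was 124 and 1.22 (5.17), and the protease inhibitor SLPI was 2.70 and 50.3 (-4.43).

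Keratins leaned to UACC-812 in number. Of 22 measured, 9 were 2-fold higher in UACC-812 and 2 in SKBR3, with a median of 0.72 that became -0.06 after the trend with GC content, described at the end, was removed. KRT8 and KRT18, the partner keratins of simple epithelium, were both higher in UACC-812, by 1.63 and 1.15, and KRT19 was 15171 and 12638 (-0.37).

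Genes of cell division were higher in SKBR3. Of 31 genes of mitosis and replication, 20 were at least 2-fold higher in SKBR3 and 0 in UACC-812, 13 were 4-fold higher, and the median was -1.74. CDK1, the kinase that starts mitosis, was 264 in UACC-812 and 2424 in SKBR3 (-3.83). AURKA, a spindle kinase, was 546 and 3360 (-3.26), and no other line exceeded 673. CCNA2, the cyclin of S phase and G2, was 34.5 and 250 (-3.46). Members of the same machinery were not equal, since PLK1, another mitotic kinase, was 173 and 144 (-0.37) and MKI67, the Ki-67 antigen, was 164 and 194 (-0.88). The replicative helicase genes were near even or lower in UACC-812: MCM2 was 781 and 363 (0.47) and MCM4 was 2342 and 4339 (-1.53). SKBR3 lay above the other 4 lines at 7 of the 31 genes (3 as deposited) and UACC-812 below them at 6 (4 as deposited).

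Targets of p53 leaned the other way. Of 24 measured, 15 were 2-fold higher in UACC-812 and 2 in SKBR3, 9 against 0 were 4-fold apart, and the median was 1.53. CDKN1A, the cell cycle inhibitor p21, was 199 in UACC-812 and 3.95 in SKBR3 (4.69), the lowest of the 6 lines. GDF15, a secreted stress cytokine, was 166 and 0.0666 (6.65), and the other lines had 0.811 to 14.1. BAX, a pore former of mitochondrial apoptosis, was 389 and 38.2 (2.68). SKBR3 lay below the other 4 lines at 11 of the 24 genes, and UACC-812 lay above them at 7. MDM2, a ubiquitin ligase, was 1675 and 527 (1.03), and RRM2B, a ribonucleotide reductase subunit, was the furthest the other way at 118 and 224 (-1.56).

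Metallothioneins, small proteins that bind zinc and copper, were lower in UACC-812. Of 10 measured, 9 were at least 2-fold higher in SKBR3 and 0 in UACC-812, with a median of -2.91. MT2A was 12.3 in UACC-812 and 406 in SKBR3 (-5.57), MT1X was 6.10 and 159 (-5.13), and MT3 was listed at 0 in both. UACC-812 was below all 4 other lines at 5 of the 10 genes (4 as deposited), and SKBR3 above them at 3 (2 as deposited). The genes are alike in sequence and lie side by side on chromosome 16, so reads may be shared between them. Their promoters are known for metal response elements, bound by the zinc sensor MTF1. The letters TGCACNC or TGCGCNC, searched on both strands, were in 29.6% of 35116 RefSeq promoters and occurred 2 or more times in 8.60%. All 3 metallothioneins with a promoter at hand had them, with 8 in MT2A, 8 in MT1H and 4 in MT1X. The windows of MT2A (chr16:56608334-56608633, plus strand) and MT1X (chr16:56682220-56682519, plus strand) of GRCh38.p14 are shown because these genes had the widest gaps, with the matches in capitals on either strand.
MT2A: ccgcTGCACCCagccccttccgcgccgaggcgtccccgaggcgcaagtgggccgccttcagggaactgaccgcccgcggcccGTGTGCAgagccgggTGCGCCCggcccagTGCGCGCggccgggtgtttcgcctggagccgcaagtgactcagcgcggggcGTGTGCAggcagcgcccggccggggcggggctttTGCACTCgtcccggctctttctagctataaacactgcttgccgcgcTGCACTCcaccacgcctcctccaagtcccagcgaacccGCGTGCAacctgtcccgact
MT1X: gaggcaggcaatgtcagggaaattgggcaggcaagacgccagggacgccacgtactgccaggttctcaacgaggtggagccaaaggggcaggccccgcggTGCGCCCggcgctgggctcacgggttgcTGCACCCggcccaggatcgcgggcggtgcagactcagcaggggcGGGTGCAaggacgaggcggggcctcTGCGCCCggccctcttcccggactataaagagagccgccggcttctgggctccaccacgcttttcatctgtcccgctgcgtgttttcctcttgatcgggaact

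More genes of the TGF-beta and mesenchymal lists were higher in SKBR3 than in UACC-812. TGFBR2, the receptor chain that binds the ligand, was 0.241 in UACC-812, under the value of 3 reads, 62.9 in SKBR3 (-6.32) and 3.27 to 140 elsewhere. TGFBR1, its signalling partner, was 360 and 948 (-2.03), and the ligand gene TGFB2 was 0.539 and 11.5 (-3.66). The co-receptor gene TGFBR3 went the other way, at 47.4 and 5.16 (2.34). SMAD4, the shared mediator, was 104 and 47.004 (0.50). Of 33 ligands, receptors and SMADs, 13 were 2-fold higher in SKBR3 and 5 in UACC-812. ZEB2, a repressor of epithelial genes such as CDH1, and TCF4, a transcription factor on the same list, were listed at 0 in UACC-812 and were 13.2 and 35.4 in SKBR3. Of 21 mesenchymal genes 8 were higher in SKBR3 and 4 in UACC-812. LOXL2, a collagen crosslinking enzyme, was among the latter with 171 and 8.65 (3.52). WNT5A, a Wnt ligand, was 0.00807 and 106 (-7.37), and WLS, which carries Wnt ligands to the surface, was 0.0399 and 73.0 (-6.79).

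Several germline transcripts and an imprinted one were high in SKBR3 and at or near 0 in UACC-812. H19, an imprinted noncoding RNA of fetal tissues, was the widest gap of all, with 0.0593 in UACC-812, 2057 in SKBR3 (-11.56) and 0.619 to 21.3 elsewhere. TDRD1, a Tudor protein of the germline piRNA pathway, was 0.309 and 1292 (-10.59), with at most 1.43 elsewhere. Of 22 cancer-testis genes, normally made in germ cells, 16 were 2-fold higher in SKBR3 and 1 in UACC-812, with a median of -2.84, and SKBR3 was above the other 4 lines at 10. CTAG2 was listed at 0 in UACC-812 and was 232 in SKBR3. MAGEA3 and MAGEA6 were listed at 0 in UACC-812 and were 47.3 and 44.3 in SKBR3, though near-identical copies may share reads. In UACC-812 the imprinted gene PEG3 was 326, against 0.00791 in SKBR3 and at most 1.82 elsewhere. ZIM2, which overlaps PEG3 and may share its reads, was 274 and listed at 0.

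HOX genes, which set position along the body, were higher in UACC-812 where they were 2-fold apart. The HOXB genes HOXB3 and HOXB6 were 73.0 and 58.4 in UACC-812 and listed at 0 in SKBR3. HOXC10 was 69.5 and 8.73 (2.22), and HOXC11 was 14.6 and 17.8 (-0.90). Of 34 HOX genes, 11 were 2-fold higher in UACC-812 and 0 in SKBR3, and most of the rest were near 0 in both.

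**Figure D4:**
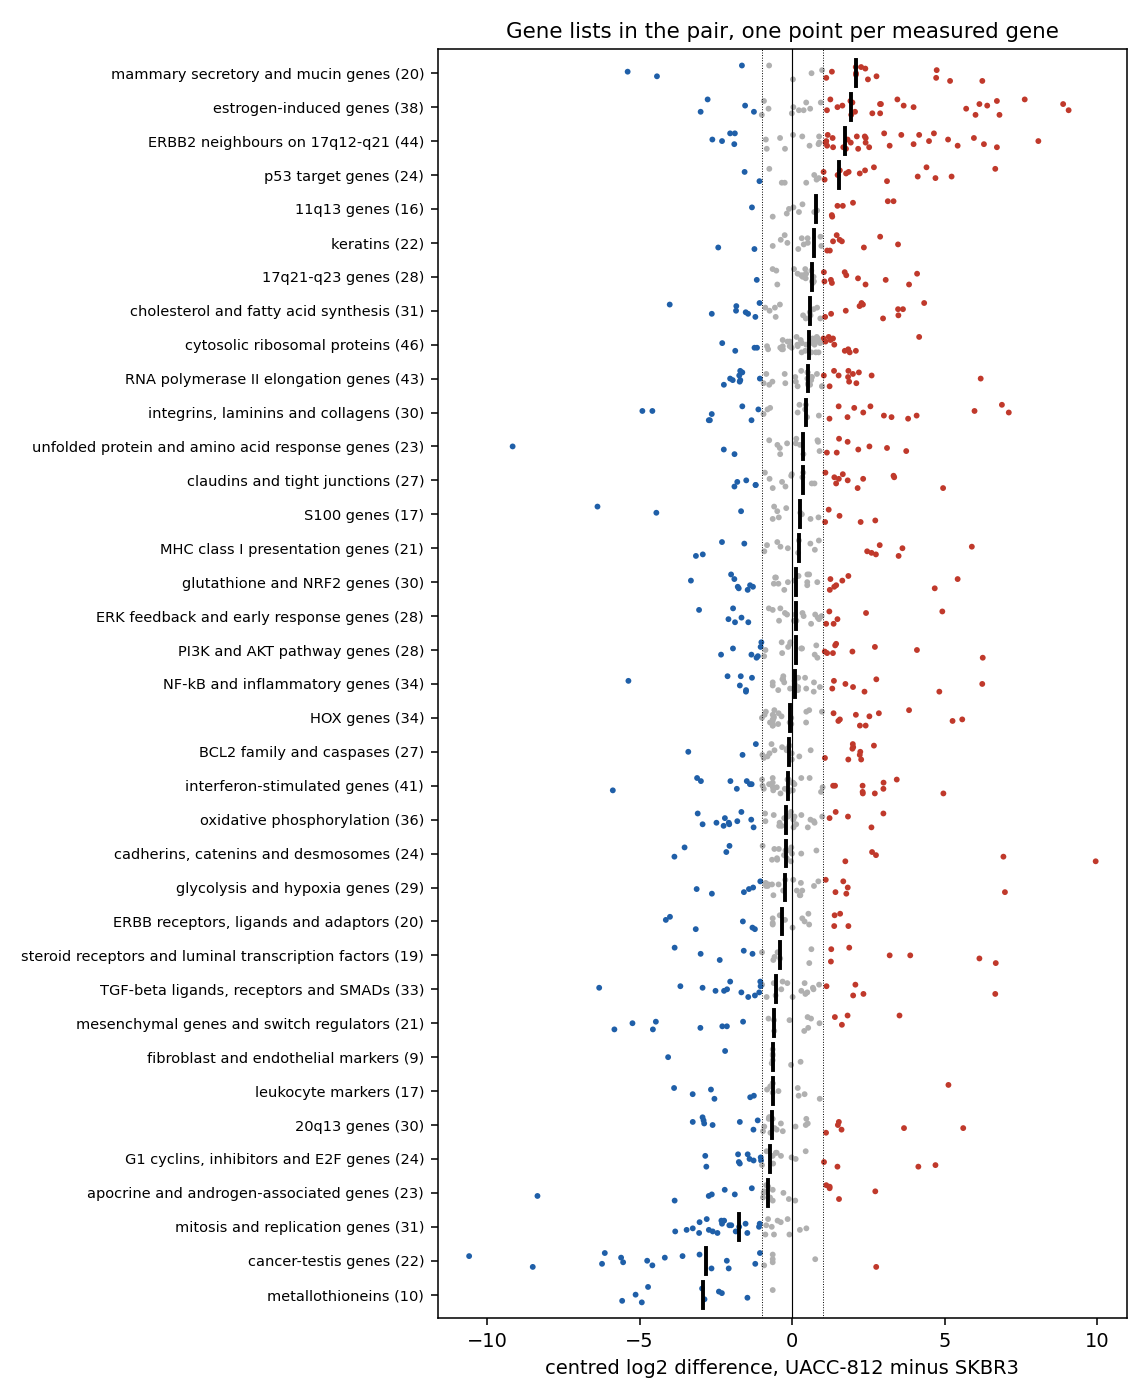
For 37 gene lists, each point is a measured gene at its centred log2 difference, red where at least 2-fold higher in UACC-812 and blue where in SKBR3, and the black bar is the list median. Medians run from -2.91 for metallothioneins to 2.09 for mammary secretory and mucin genes.

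Among the widest gaps of single genes were several with other functions. DHRS2, a mitochondrial dehydrogenase on the apocrine list, was 30.7 in UACC-812 and 6626 in SKBR3 (-8.35), and at most 17.9 elsewhere. PLS3, an actin bundler, was 4.33 and 1862 (-9.09), and UACC-812 was the unlike line, since the others had 388 to 16469. PSAT1, an enzyme of serine synthesis, was listed at 0 in UACC-812 and was 367 in SKBR3. AQP3, a water and glycerol channel, was listed at 0 and was 140. In UACC-812, HSD17B1, which makes estradiol from estrone, was 4098, against 7.10 in SKBR3 (8.34) and 7.83 to 89.2 elsewhere. SCUBE2, a secreted protein, was 2607 and 1.23 (9.55), and NUPR1, a stress-induced chromatin protein, was 1291 and 1.79 (8.22). SLIT1, an axon guidance ligand, was 340 in UACC-812, listed at 0 in SKBR3 and at most 1.19 elsewhere.

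Immune genes were mixed. Of 21 MHC class I presentation genes, 7 were 2-fold higher in UACC-812 and 4 in SKBR3. HLA-B was 808 and 70.3 (2.87), and HLA genes are alike enough to share reads. SKBR3 was below the other 4 lines at 7 genes of this list and UACC-812 at 8, and as deposited the counts were 11 and 7. TAP2, a peptide transporter, went the other way at 23.4 and 119 (-2.93). Of 41 interferon-stimulated genes 10 were higher in UACC-812 and 8 in SKBR3. LGALS3BP, a secreted galectin ligand, was 80.4 and 3076 (-5.88). HERC5, the ligase that attaches ISG15, was 47.3 and listed at 0. IL32 was 142 and 0.230 (6.23), and the chemokine gene CX3CL1 was 0.0259 and 26.2 (-5.37), within a list of 34 inflammatory genes that had 8 higher in UACC-812 and 7 in SKBR3.

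Metabolic genes differed in both directions. FASN, fatty acid synthase, was 1467 in UACC-812 and 5857 in SKBR3 (-2.63), while the desaturase genes FADS1 and FADS2 were 24.8 and 19.9 in UACC-812 and 0.496 and 0.202 in SKBR3. PMVK, an enzyme of the mevalonate pathway, was 791 and 24.4 (4.32). Of 31 genes of cholesterol and fatty acid synthesis, 11 were 2-fold higher in UACC-812 and 8 in SKBR3, and 8 against 2 were 4-fold apart. Oxidative phosphorylation had 11 of 36 genes 2-fold higher in SKBR3 and 5 in UACC-812. The sign of its median was not stable, at -0.19 centred and 0.44 as deposited. COX6C, a subunit of cytochrome oxidase, was 4013 and 324 (2.99), above all other lines, and NDUFB9, a complex I subunit, was 249 and 1372 (-3.10). ENO2, an enolase, was 253 and 0.300 (6.97), with the other lines at 74.2 to 724.

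Ribosomal protein genes were often above the other lines, in UACC-812 more than in SKBR3. UACC-812 lay above the other 4 lines at 36 of 46 and SKBR3 at 22 (35 and 10 as deposited), and 11 were 2-fold higher in UACC-812 and 4 in SKBR3. RPL7 was 5569 and 17531 (-2.29), and RPL30 was 5985 and 905 (2.09). Among abundant genes that hardly differed were EEF1A1, an elongation factor (50779 and 29874, 0.13), RPN2, of the oligosaccharyl transferase (17266 and 11062, 0.00), and the chaperone CANX (7490 and 4882, -0.02).

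Neighbouring genes moved together at other places too. Over 12448 windows of 15 genes, the median was 0.14, and 90% of windows lay between -1.43 and 1.66. The window from DOCK4 to ST7OT2 on chromosome 7, with MET, had a median of -3.41, with SKBR3 above the other lines at 11 of its 15 genes (9 as deposited) and UACC-812 below at 9 (7 as deposited). ST7 was 146 and 2277 (-4.59). On chromosome 8, TNFRSF11B to ATAD2 had -3.37, with SKBR3 above at 13 genes. MTBP, a binding partner of MDM2, was 92.7 and 2096 (-5.12). On chromosome 19, a run of zinc finger genes from ZNF430 to ZNF675 had 4.08, with SKBR3 below the other lines at 13 of 15 genes. ZNF91, a repressor of retroelements, was 151 and 0.351 (6.18). On chromosome 17, SNX11 to B4GALNT2, which holds the HOXB cluster, had 3.63. The protocadherin gamma genes on chromosome 5 had 4.49, but they share exons and are uncertain as separate genes. MTM1 to MAGEA6 on chromosome X had -4.58. Of 30 listed genes of 20q13, SKBR3 was above the other lines at 17 and UACC-812 at 12 (12 and 13 as deposited). CSE1L, an export receptor, was 2468 and 11705 (-2.88), and BCAS4 was 595 and 29.2 (3.66).

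A trend with base composition runs through the whole comparison. Genes that reach 5 in either line were divided into 5 equal classes by the GC content of their longest transcript. In the lowest class, 30.2% to 40.8% GC, the median was -0.81, and in the highest, 58.1% to 74.7%, it was 1.11. The share 4-fold higher in UACC-812 went from 6.11% to 26.2%, and the share 4-fold higher in SKBR3 from 18.6% to 3.43%. The spread of 1.92 between the end classes was the widest of the 15 pairs of lines. All pairs were measured on these same genes, which were filtered by their level in UACC-812 and SKBR3. Chromosome medians moved with it. Chromosome 19 was 1.10 and chromosome 4 was -0.67, and with the trend removed they were 0.57 and 0.01, whereas chromosome 7 was -0.43 and chromosome 8 was 0.79. Of 237 named genes 4-fold apart, 207 were still 4-fold apart in the same direction without the trend and 0 turned sign. The medians of the estrogen-induced (2.02), mitosis (-1.51), p53 (1.42) and metallothionein (-3.66) lists kept their direction. Whether the trend comes from the libraries or the cells was not tested.

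**Figure D5:**
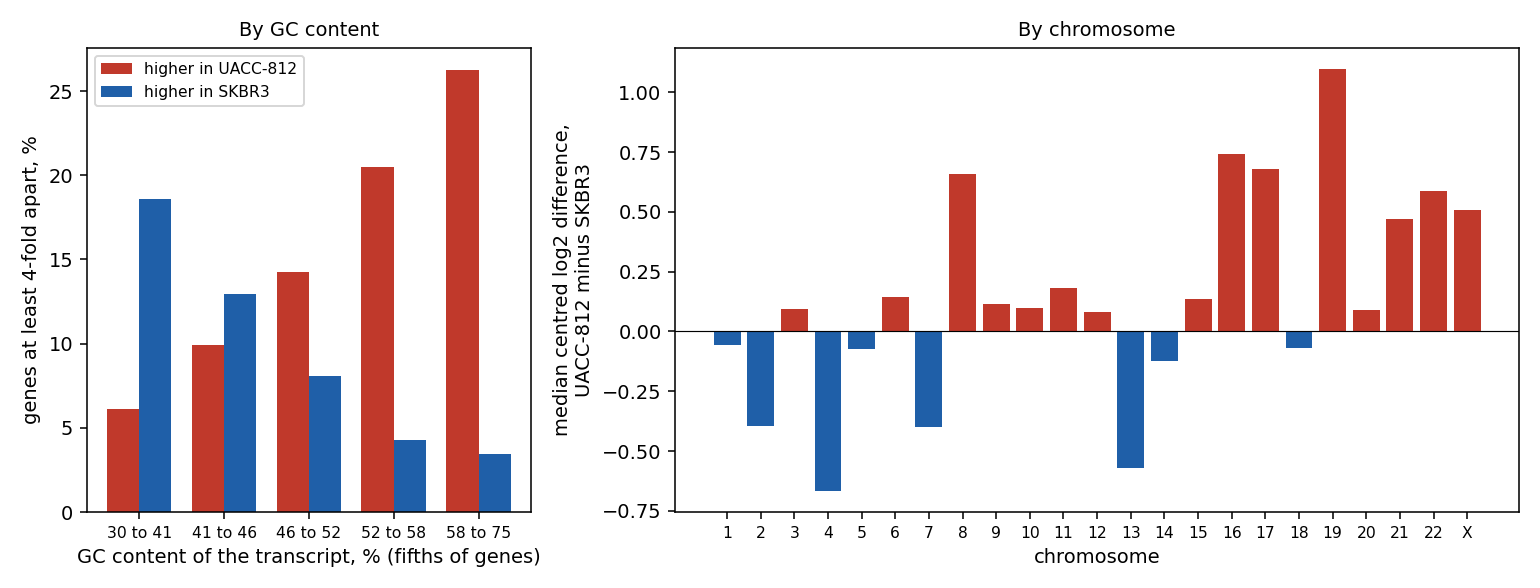
On the left, bars give the percentage of genes at least 4-fold higher in UACC-812 (red) and in SKBR3 (blue) in 5 classes of transcript GC content, and on the right bars give the median centred log2 difference of each chromosome. The red bars rise from 6.11% to 26.2% and the blue bars fall from 18.6% to 3.43%.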

How the data were processed

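Per the labels' protocols, RNA was taken with Tri reagent, DNase-treated and made into mRNA libraries. The submitters' processing notes name CASAVA 1.8, RSEM and hg19, with no role given. The deposited values are read here as RPKM summed over exons. The labels name no unit, and it was read from low values of single-exon genes, 78.3% of which in UACC-812 and 69.8% in SKBR3 were whole reads within 0.02, against medians of 2.61% and 3.18% over other depths. Genes of a single exon cannot show whether values were summed over exons, so that part of the reading was not tested. A count model was not used, and depth limits low values as given with the results.

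Of 16444 genes, 22 with date-like names and 4 entries of repeated names were left out, and 27 shared values with another gene. Differences are log2(value + 1), UACC-812 minus SKBR3, minus the median of 0.64, computed with pandas 2.3.3 and numpy 2.4.6 in Python 3.11.15, drawn with matplotlib 3.10.9, and tested on simulated data. A gene was beyond the other 4 lines on log2 values centred by library. The pair, the 37 lists and the rule for named genes were chosen with earlier results of these data known. The rule names ESR1, CDH1 and ERBB2, the 6 members of each list furthest apart among those reaching 5 and the furthest opposite member, the 15 widest gaps each way at 50 or more, 8 genes listed at 0, 3 genes in each of 10 windows and 10 even genes. Other genes given for their role, such as GREB1, FOXA1, ERBB3, the catenins, PLK1 and the neighbours on 17q and 16q, were chosen after their values were seen. Symbols were matched to a reference of GRCh38.p14 for gene order in 15948 genes, and transcript GC content, from GENCODE 29, was at hand for 15826 (96.4%). A few listed genes are not reported here, and the list counts still hold them.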

Additional observations from a re-analysis of the deposited data

How the results depend on the processing

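Each line had 1 library, so no replicate could be left out, and no direction below carries an error. No paired analysis was possible because there is 1 library a line. As deposited, with no centring, the genes at least 4-fold higher were 3406 in UACC-812 and 717 in SKBR3, and at 2-fold 6770 and 2004. The 4-fold genes of UACC-812 then had SKBR3 alone beyond the other lines at 1040 and both at 931, and those of SKBR3 had SKBR3 alone at 247, UACC-812 alone at 146 and both at 144. With a pseudocount of 5, 801 genes were 4-fold higher in SKBR3, where SKBR3 alone was beyond at 293, both at 267, neither at 121 and UACC-812 alone at 120, and neither line was beyond at 268 genes of UACC-812. The most extreme window toward SKBR3 had a median of -5.54 over 11 genes, -3.24 over 25 genes and -3.84 among genes reaching 20. Removing the GC trend, an alternative chosen after seeing the data, left 1751 and 1062 genes 4-fold higher and 3969 and 3390 at 2-fold. Factors by trimmed mean (TMM) or upper quartile, centring on high genes, a pseudocount of 0.1 and filters at 5 and 20 left these 4 counts within 1.5 times. No named gene or list median turned sign among those at 1 or more, but sizes depended on the setting. Over the settings with centring, the cancer-testis median ran from -6.04 to -1.50 and the metallothionein median from -5.20 to -1.89. The estrogen-induced median moved less, from 1.34 to 2.30. The unit of the values was inferred, low genes are understated on this scale, and copy number, medium and batch were not separable from the line.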
